A study of Arabidopsis thaliana with 14 samples.

Results

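Transcript levels after 12 h with the compound 7606596 were compared with those after 3 h, in whole seedlings of Arabidopsis thaliana. The arrays were chosen by sample title, 2 labelled as 12 h with 7606596 and 2 labelled as 3 h with it, 4 of the 14 arrays of a series on a chemical that its title calls albino. These 4 carry wild-type Col-0 seedlings kept at 22 °C in days of 16 h light with 8 h dark, moved for a day into liquid 0.5x MS medium and given the compound at a final 50 µM on day 6 after germination. Beside them stand Col-0 seedlings of the same growth given 50 µM of a second compound, 5929745, for 3 h or 12 h, and untreated seedlings collected at 0 h, 3 h and 12 h, with 2 arrays in each of the 7 groups. Both compounds are known here by code name alone. The labels give neither the clock time of the treatment nor whether untreated seedlings received the compounds' solvent, so elapsed time, time of day and time with the compound cannot be told apart within the 7606596 arrays alone. The labels speak of a pair of independent sets of arrays and do not say that these came from separate cultures, so every p-value measures the spread between these arrays, which may be technical.

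Seedling transcript levels follow a daily course. The circadian clock and the light and dark phases set it, and genes for photosynthesis, starch turnover, cell expansion and cold response are among those known to follow it in Arabidopsis. Photosynthetic complexes of the chloroplast are built from subunits encoded in the nucleus and subunits encoded in the plastid, and plastid transcripts are further edited and processed by nuclear-encoded proteins. Starch made in the chloroplast by day is broken down at night, a process that starts with phosphorylation of the granule surface.

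The arrays measure 22746 probe sets other than controls, and the 15922 with a mean signal at or above 42.3, the 30th percentile, were tested. In the gene lists and families below, a measured gene is one with a tested probe set. The 2 arrays of a group had a correlation of 0.983 to 0.9885 over probe sets, which are not independent replicates. The poly-A spike-in transcripts had a mean log2 signal of 4.94 and 5.25 at 12 h with 7606596, against 5.34 and 5.00 at 3 h, so the groups overlapped. The probe set of 25S rRNA was lower, at 409 and 320.0 against 531 and 466, and the highest signal of an array was 31444 and 27535 at 12 h, against 38170 and 42066 at 3 h. In untreated seedlings the poly-A transcripts lay at 6.71 and 6.66 at 12 h and 6.64 and 6.52 at 3 h, and the hybridization controls at 10.77 and 10.82 against 11.18 and 11.14. With 7606596 the hybridization controls lay at 11.14 and 11.12 against 11.17 and 11.23. Each tissue was checked by markers: of 6 shoot markers 1 was measured, PORB, at 2792 and 2945 at 12 h against 3601 and 3230 at 3 h. Of 7 root markers 3 were measured (PYK10, EXPA7 and EXPA18), with a summed signal of 12943 and 14132 against 15524 and 12923. A sum gives most weight to strong signals, and the range of their separate changes is given with the expansins below. Of 9 dry-seed markers 0 could be matched to a probe set.

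Between 3 h and 12 h with 7606596, 4215 of 15922 probe sets changed, 26.5% of those tested. Higher at 12 h were 2233 (14%) and lower 1982 (12.4%). A change was counted at an adjusted p under 0.05 in limma, and is given as 12 h minus 3 h of log2(signal + 16) with its standard error, a scale that understates the change of weak signals. The median size of a called change was 0.694. At least 2-fold were 406 rises and 529 falls, and at least 4-fold 29 rises and 78 falls, so large falls outnumbered large rises while rises were the more numerous overall. Of the probe sets that changed, 2138 have a single gene in the annotation and 2077 do not, and the most extreme values (3.85 and -5.90) belong to probe sets without a gene name. Since RNA came from whole seedlings, fewer cells of a type and less RNA per cell cannot be told apart.

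The course with 7606596 was set beside that of untreated seedlings, which shares no array with it. There 5449 probe sets changed (34.2%), and 3051 were called in the same direction in both courses, 72.4% of those called with 7606596 and 56% of those called in untreated seedlings. In opposite directions went 15. Of the 4215 probe sets called with 7606596, 4043 (95.9%) had the same sign in untreated seedlings, against 75.4% of all probe sets. The 5929745 course had 4038 calls (25.4%), of which 2807 were shared in direction, 66.6% of the calls with 7606596 and 69.5% of those with 5929745, and 1 probe set went the opposite way. The log2 changes with 7606596 correlated with the untreated ones with r = 0.799 and with the 5929745 ones with r = 0.824, as a description over 15922 probe sets that share the array design and the variance estimate. Their SD over probe sets was 0.535 with 7606596, 0.511 with 5929745 and 0.583 in untreated seedlings.

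**Figure D1:**
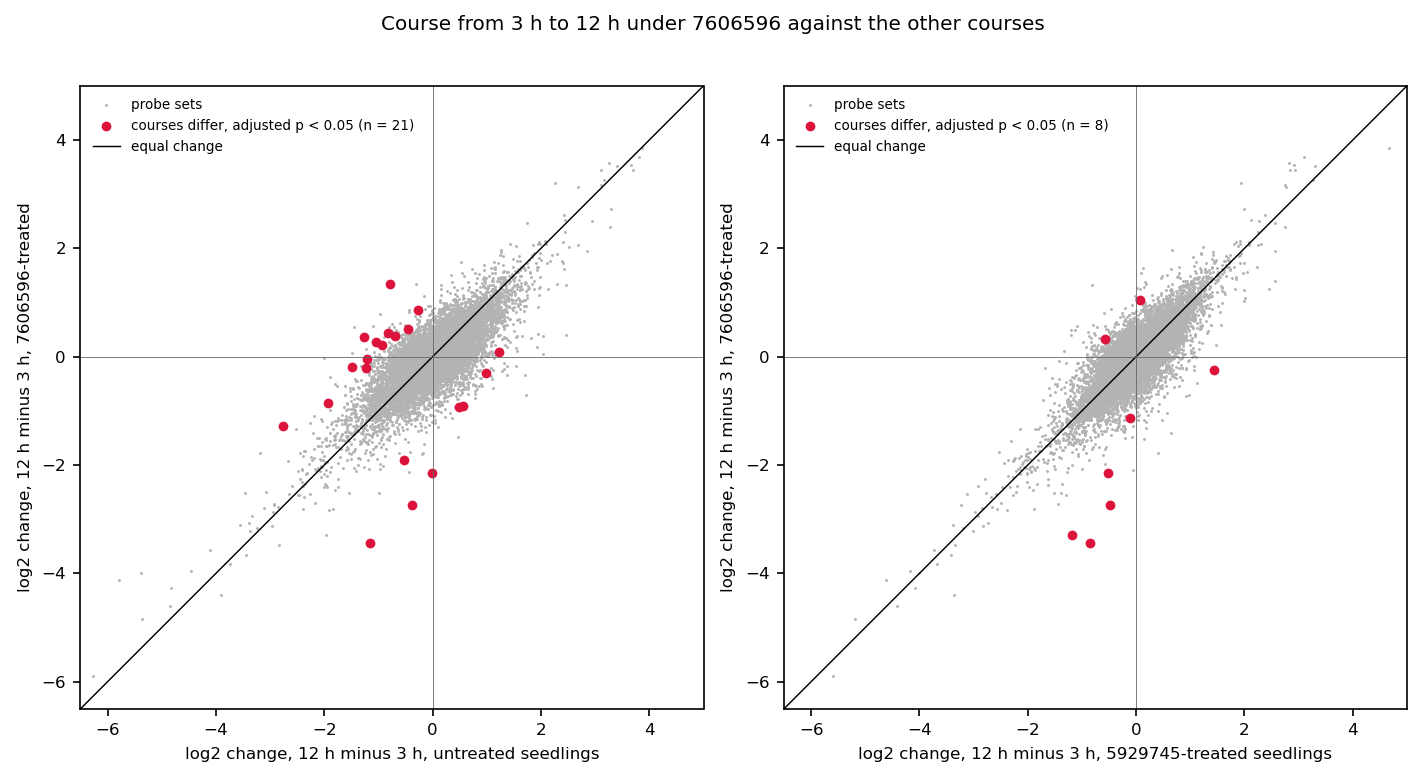
Log2 change from 3 h to 12 h of each tested probe set with 7606596 (vertical) against the change in untreated seedlings (left) and with 5929745 (right). Red points mark the 21 and 8 probe sets whose courses differed at an adjusted p under 0.05, and most points lie along the line of equal change.

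Among the largest rises of named genes AT4G33980 had 1283 and 1151 at 12 h, against 71.7 and 113 at 3 h (3.53 ± 0.20, adjusted p = 2.68e-10). AT1G07050 had 268 and 351 against 24.4 and 15.8 (3.17 ± 0.41). Its 3 h signals lay under 42.3 too, and its change was 3.899 with an offset of 1 and 2.145 with 64. AT1G17665 had 197 and 218 at 12 h, against 2.97 and 2.67 at 3 h, and AT2G23910 had 184 and 239.7, against 2.68 and 7.14. In both the 3 h signals lay far under 42.3, so they passed the filter through groups where they are high, and the size of the change is set by the offset. It came to 3.57 and 3.44 with an offset of 16, 5.77 and 5.27 with 1, and 2.02 and 1.996 with 64, and the order of the largest rises changes with it. None of these locus numbers has a name in the reference used here, and AT4G33980 stands on the list of evening-phased clock genes.

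PWD, the phosphoglucan, water dikinase that phosphorylates starch granules ahead of their breakdown, had 2606 and 3022 at 12 h and 479 and 467 at 3 h (2.53 ± 0.13, adjusted p = 7.25e-11), with 476 and 376 in untreated seedlings at 0 h. The 12 h arrays stand apart from the 3 h ones, as the naming rule required. They also stand apart from the 0 h pair, which overlaps the 3 h pair. COR27, a cold-regulated gene that also acts on the circadian clock, had 1999 and 1969 at 12 h and 399.9 and 531 at 3 h (2.07 ± 0.16, adjusted p = 1.58e-08). OTP81, a pentatricopeptide repeat protein needed for processing of organelle transcripts, had 324 and 299.6 against 58.9 and 63.8 (2.08 ± 0.31, adjusted p = 6.24e-05). Among the serine carboxypeptidase-like genes, scpl35 reached 481 and 637 at 12 h, against 132 and 102 at 3 h, and SCPL49 reached 2859.8 and 3018, against 915 and 697. Their log2 changes were 2.11 ± 0.16 and 1.86 ± 0.15.

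The rest of the 15 largest rises were loci without a name, AT4G16146 (2.50), AT4G30650 (2.47), AT5G58570 (2.13), AT4G34950 (2.02), AT3G48490 (1.94) and AT3G52170 (1.88). With an offset of 64 the change of AT3G48490 was 1.28. AT4G34950 was already high at 3 h relative to the start of the experiment, with 2684 and 3156 at 12 h, 731 and 677 at 3 h and 80.7 and 94.1 in untreated seedlings at 0 h. In AT4G30650 the 12 h arrays were far apart, at 161 and 403, against 3 h signals of 45.3 and 23.5. Its change was 2.926 with an offset of 1 and 1.729 with 64. All 15 also rose in untreated seedlings, where their log2 changes ran from 1.27 to 3.70, and with 5929745, where they ran from 1.24 to 2.92.

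THI2.2, a thionin, the class of small cysteine-rich antimicrobial peptides, had the largest fall of a named gene. It had 207 and 335 at 12 h, against 3320.2 and 3739 at 3 h (-3.66 ± 0.18, adjusted p = 3.71e-11). At 0 h it had 1932 and 2263 in untreated seedlings, so the 12 h arrays were the low ones. AT3G22620 fell to 199 and 196 at 12 h, against 2002 and 2646 at 3 h (-3.44 ± 0.20, adjusted p = 3.69e-10), and AT2G48130 to 129.5 and 78.4, against 757 and 772 (-2.73 ± 0.24, adjusted p = 1.04e-07). These are the 2 measured members of the list of lipid-transfer proteins, whose 8 members were listed by locus. Both stood higher at 3 h with 7606596 than at 0 h without it, where AT3G22620 had 728 and 1079 and AT2G48130 251 and 404, and lower than that at 12 h.

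EXPA8, an expansin of the group that loosens cell walls during growth, had 47.8 and 57.6 at 12 h and 421 and 450.4 at 3 h (-2.72 ± 0.18, adjusted p = 2.35e-09). AT5G35970 had 361 and 405 at 12 h and 3506 and 3628 at 3 h (-3.17 ± 0.13), with 4386 and 3784 at 0 h. AT1G55960 had 452 and 442 against 2416 and 2428 (-2.40 ± 0.12), with 4987 and 4874 at 0 h. In this locus the 3 h arrays thus lay between those of 0 h and 12 h. AT5G48430 behaved otherwise, at 424 and 319.8 at 12 h and 2142 and 1658 at 3 h with 7606596, beside 571 and 359.9 at 0 h in untreated seedlings, a range that overlaps the 12 h one. The other 8 were AT1G66100, AT1G76240, AT5G16030, AT2G15020, AT3G53980, AT3G01060, AT4G16880 and AT4G38080, with log2 changes from -3.06 to -2.35. Of the 15 largest falls, 14 also fell in untreated seedlings, and AT2G48130 had -0.38 ± 0.24 there (adjusted p = 0.24).

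**Figure D2:**
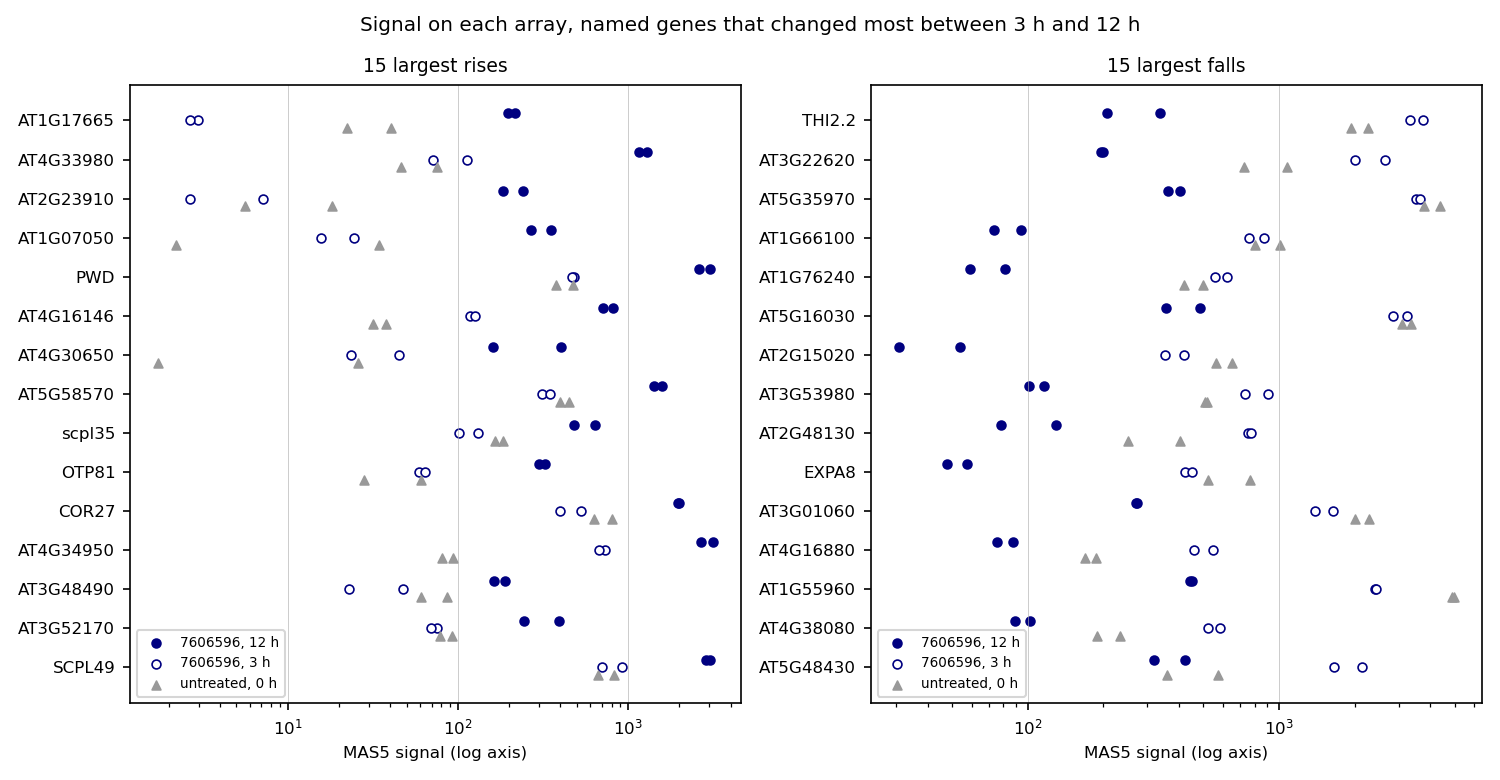
Signal on every array (log axis) of the 15 named genes with the largest rises and the 15 with the largest falls, at 12 h (filled circles) and 3 h (open circles) with 7606596, with untreated seedlings at 0 h as triangles. The rule that chose these genes took only those whose 12 h and 3 h arrays do not overlap. The signals include AT1G17665 at 197 and 218 against 2.97 and 2.67 and THI2.2 at 207 and 335 against 3320.2 and 3739.

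Every measured nuclear gene for light harvesting and for the photosystems was lower at 12 h. The 2 measured of 11 listed light-harvesting genes both fell, and so did 5 of 5 measured genes for nuclear-encoded photosystem and electron transport subunits out of 22 listed, beside 12.4% of all probe sets lower. The median change of these 5 was -0.99, against 0.0183 over all tested probe sets. LHCB4.2, a minor antenna protein of photosystem II, had 6711 and 5556 at 12 h and 24603 and 25319 at 3 h (-2.03 ± 0.11, adjusted p = 1.47e-10). Its relative LHCB4.1 had 19888 and 19364 against 30922 and 32996 (-0.70 ± 0.10, adjusted p = 2.6e-05). In both genes the 2 groups were well apart, and the 3 h signals of LHCB4.2 lay somewhat under those of 0 h (28779 and 27980.5).

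PSBY and PSBW, small subunits of photosystem II, changed by -1.08 ± 0.10 and -1.03 ± 0.10. PSBY had 9723 and 10169 at 12 h and 20866 and 21139.5 at 3 h, and PSBW 8856 and 8599 against 17327 and 18412. PSAN, a lumenal subunit of photosystem I, changed by -0.99 ± 0.10 and PSAE-1, which helps dock ferredoxin at photosystem I, by -0.65 ± 0.12. The fifth, ATPC1, for a subunit of the ATP synthase, changed by -0.37 and was not called under quantile normalization or without replicate 2 of 12 h or of 3 h, which left 4 falls each time. Several of these signals are among the highest of the array, and the highest signal itself was lower at 12 h (31444 and 27535 against 38170 and 42066). With the arrays brought to equal distributions by quantile normalization, LHCB4.2 changed by -1.90, PSBY by -0.87, PSAE-1 by -0.38 and LHCB4.1 by -0.34, so each still fell, while the change of the last 2 was smaller by over 1.5 times. In untreated seedlings the 2 lists fell too, in 2 of 2 and 5 of 5 genes, beside 16% of all probe sets lower. With 5929745 the 2 lists fell in 2 of 2 and 4 of 5, beside 11.5% lower. Of these genes 0 had a course that differed from either (limma, 1 and 0 at an unadjusted p under 0.05 against untreated seedlings and 5929745).

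Of 17 listed Calvin cycle genes 3 were measured and 2 fell, beside 12.4% of all probe sets lower. These were RCA, which activates Rubisco (-0.70 ± 0.10, adjusted p = 3.16e-05), and the phosphoribulokinase gene PRK (-0.45 ± 0.11, adjusted p = 0.00647). RCA had 19542 and 19188 at 12 h, against 29340.1 and 33946 at 3 h. Under quantile normalization RCA changed by -0.34 and PRK by -0.18 (adjusted p = 0.347), and the call of PRK was also lost without replicate 1 of 12 h (-0.37) or of 3 h (-0.36). Of 6 measured genes for chlorophyll synthesis 1 rose and 1 fell, beside 26.5% of all probe sets called in either direction. GSA1, which makes the first committed precursor aminolevulinic acid, had 2506 and 2182 at 12 h and 1271 and 1549.7 at 3 h (0.73 ± 0.18, adjusted p = 0.00566), and CHLM, a methyltransferase of magnesium protoporphyrin, had 8509 and 7265 against 9671 and 11655 (-0.43 ± 0.12, adjusted p = 0.0123). Neither call held under every alternative: GSA1 had 0.63 and 0.59 without replicate 1 of 12 h or of 3 h (adjusted p = 0.0542 and 0.0751), and CHLM -0.32 and -0.30 without replicate 2 of 12 h or of 3 h (adjusted p = 0.144 and 0.179) and -0.30 under quantile normalization (adjusted p = 0.0652).

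Both tested genes of starch metabolism, of 17 listed and 3 on the array, rose, beside 14% of all probe sets higher. Beside PWD this was DPE1, the disproportionating enzyme that recycles maltotriose in the chloroplast, at 787 and 833 at 12 h and 341 and 314 at 3 h (1.27 ± 0.14, adjusted p = 1.29e-06). At 0 h DPE1 had 115 and 108, so the groups followed each other in order of time without overlap. The changes of the 2 genes were 2.45 and 1.35 in untreated seedlings and 2.11 and 1.18 with 5929745. Of 13 listed evening-phased clock genes 3 were measured. COR27 and AT4G33980 rose, while GI, GIGANTEA, a scaffold that joins the clock to flowering, fell. The shares over all probe sets were 14% higher and 12.4% lower. GI had 509 and 424 at 12 h and 869.5 and 904 at 3 h (-0.91 ± 0.16, adjusted p = 0.000255), with 304 and 257 at 0 h, so that the highest of its 3 levels was at 3 h. In untreated seedlings GI changed by -1.46 ± 0.16 and with 5929745 by -1.23 ± 0.16. None of 9 listed morning-phased clock genes could be matched to a probe set.

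Of 69 probe sets for plastid-encoded genes 5 rose and 5 fell, beside 26.5% of all probe sets called in either direction, and their median change was -0.01. In untreated seedlings 7 rose and 11 fell, and with 5929745 3 rose and 21 fell, with a median of -0.27. The difference between the compounds' courses passed the test in 0 of 69 (limma, 29 at an unadjusted p under 0.05), as did that between 7606596 and untreated seedlings (11 at an unadjusted p under 0.05). Over all 15922 probe sets the unadjusted counts were 945 and 1767 in that order. The numbers of rises and falls depend on the scaling: under quantile normalization 13 rose and 2 fell with 7606596. Left-out arrays changed them to between 3 and 7 rises and between 1 and 5 falls, with 3 rises without replicate 1 of 12 h, and with 1 fall without replicate 2 of 12 h or of 3 h and 2 without replicate 1 of 3 h.

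The 5 rises were in genes of translation and of the cytochrome complex. Of 15 genes for plastid ribosomal proteins 4 rose, and rps18, for a small-subunit protein, had 3908 and 3043 at 12 h and 2082 and 2117 at 3 h (0.71 ± 0.14, adjusted p = 0.000836). For rps16 the signals were 607 and 607 against 403 and 259 (0.88 ± 0.18, adjusted p = 0.00126), and without replicate 2 of 3 h the change was 0.57. The calls of rpl32 (0.47) and rps15 (0.46) were lost without replicate 1 of 12 h (0.20 and 0.39) and without replicate 1 of 3 h (0.49 and 0.22), and also without replicate 2 of 3 h for rpl32 (0.45) and of 12 h for rps15 (0.53). Both rps18 and rps16 were at 12 h close to or above their levels of 0 h (2969.8 and 2964, and 631 and 546), with the 3 h arrays lower. petN, a small subunit of the cytochrome b6f complex, which links the photosystems, had 502 and 628 against 313 and 371 (0.70 ± 0.15, adjusted p = 0.00206).

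The 5 falls were in photosystem II, cytochrome b6f and ATP synthase genes. psbB, for a core antenna protein of photosystem II, had 4742 and 5143 at 12 h and 7524 and 7658 at 3 h (-0.62 ± 0.12, adjusted p = 0.0006), beside 13718 and 10291 at 0 h, which puts its 3 levels in falling order of time. psbC and psbD, 2 further core genes of that complex, changed by -0.50 and -0.50, petB by -0.35 and atpE by -0.32. Each of these 4 calls was lost when replicate 2 of 12 h was left out (-0.41, -0.51, -0.21 and -0.21) or replicate 2 of 3 h (-0.40, -0.53, -0.30 and -0.32). Without replicate 1 of 3 h psbC alone of the 4 was called, and without replicate 1 of 12 h psbD was not (-0.49). Under quantile normalization psbD had -0.47, petB -0.03 and atpE 0.09, none of them called. Of 7 probe sets for photosystem I and its assembly, 10 for the NDH complex and 4 for the plastid RNA polymerase, 0 passed the test in limma, with 4, 1 and 0 at an unadjusted p under 0.05.

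In a list labelled organelle RNA processing, 5 of 11 members rose and 0 fell, beside 14% of all probe sets higher and 12.4% lower. Its nuclear genes were matched by symbol in a family chosen after the values were seen, so not every member need act on RNA. CRR42 had 605 and 710.4 at 12 h and 296 and 287 at 3 h (1.13 ± 0.18), and CRR21 380.3 and 430.0 against 180.0 and 201 (1.03 ± 0.17). Both were named for mutants that lack chlororespiratory reduction, the activity of the plastid NDH complex. CRR22 changed by 0.86 ± 0.22, with 0.78 (adjusted p = 0.0648) without replicate 2 of 3 h, which leaves 3 rises in the list. The same list had 7 rises in untreated seedlings and 5 with 5929745. Of 18 probe sets for mitochondrion-encoded genes 2 rose and 0 fell, ccb452, for a protein of cytochrome c assembly (419 and 385 against 242 and 178, 0.90 ± 0.18), and nad1, for a subunit of respiratory complex I (0.81, with the call lost without replicate 1 of 12 h, at 0.62, or replicate 2 of 3 h, at 0.46). The call of nad1 is that of 1 of its 6 tested probe sets. Mitochondrial rises numbered 1 without replicate 1 of 12 h or replicate 2 of 3 h and 4 without replicate 2 of 12 h or replicate 1 of 3 h.

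**Figure D3:**
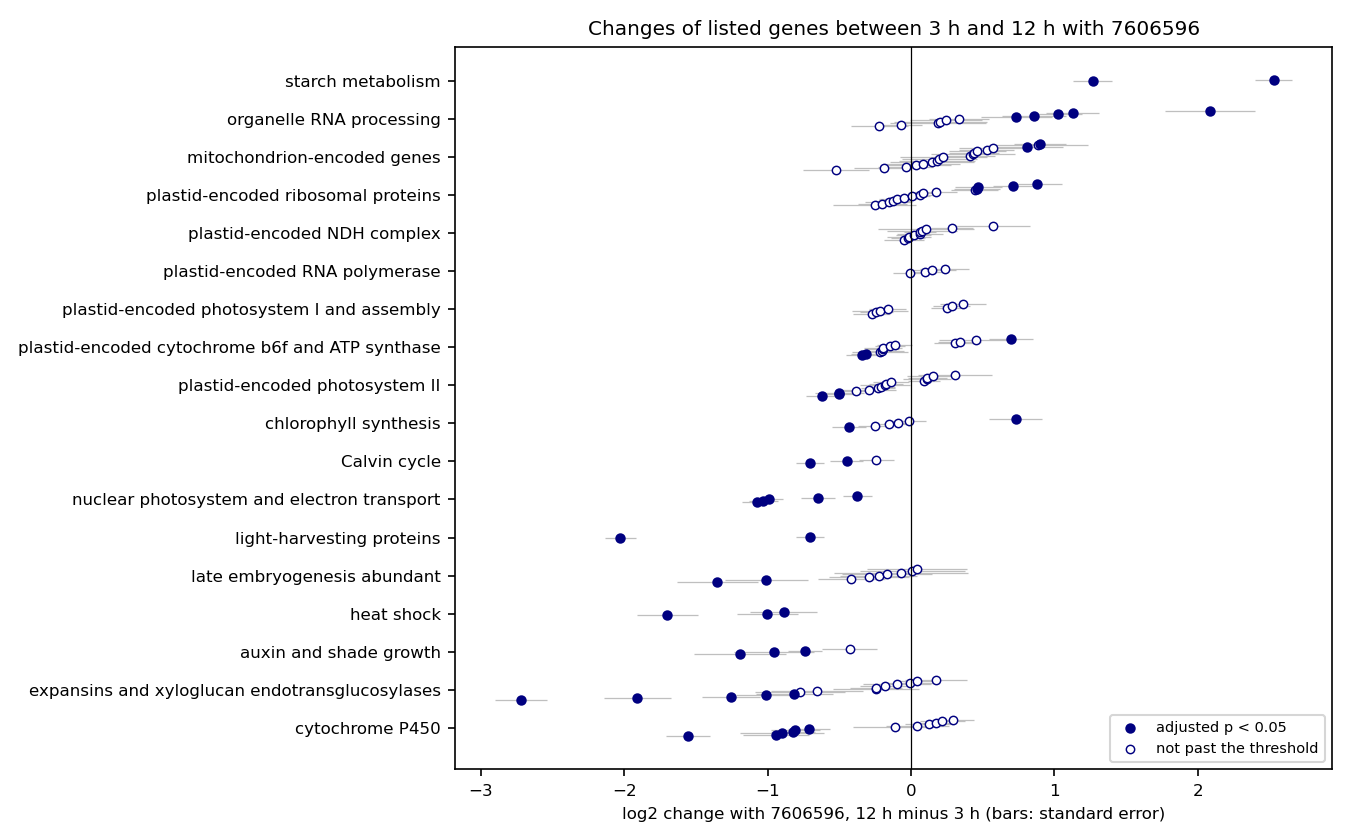
Log2 change from 3 h to 12 h with 7606596 of the measured members of 18 gene lists, with bars for the standard error of the fit. Filled points passed an adjusted p of 0.05. Starch genes lie to the right (1.27 and 2.53), light-harvesting and photosystem genes to the left (LHCB4.2 at -2.03), and plastid-encoded genes around 0.

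Of 23 expansins and xyloglucan endotransglucosylases on the array, enzymes and proteins that loosen and rejoin wall polymers, 14 were tested. Of these 5 fell and 0 rose, beside 12.4% of all probe sets lower. XTH18 had 132 and 147 at 12 h and 556 and 582 at 3 h (-1.91 ± 0.23, adjusted p = 6.07e-06), and at 0 h 178 and 155, just above the 12 h pair. XTH32 had 191 and 335 against 714 and 554 (-1.26 ± 0.20) and EXPB3 46.5 and 72.3 against 134 and 133 (-1.01 ± 0.21). EXPA7, an expansin of root hairs that also stands among the root markers, changed by -0.81 ± 0.27 (adjusted p = 0.0307), and was not called without replicate 2 of 12 h (-0.60), replicate 1 of 3 h (-0.76) or replicate 2 of 3 h (-0.87). The other 2 measured root markers did not pass the test. Over all 3 the median change was -0.77 (-0.81 to -0.06), with 2 at an unadjusted p under 0.05 in limma. The part of root tissue in these values was not tested.

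Of 4 measured auxin and shade genes 3 fell, beside 12.4% of all probe sets lower. WES1, which joins auxin to amino acids, had 1221 and 1059 at 12 h and 1809.7 and 2010.0 at 3 h (-0.74 ± 0.12, adjusted p = 0.000121). IAA29, an auxin-induced repressor, had 51.7 and 34.4 against 148 and 92.8 (-1.19 ± 0.32) and GH3.3 19.9 and 41.6 against 60.8 and 85 (-0.95 ± 0.28). With an offset of 64 IAA29 changed by -0.77 and GH3.3 by -0.53. The calls of these 2 rest on weak signals and single arrays, with IAA29 at -0.90 (adjusted p = 0.13) without replicate 1 of 3 h and -0.98 (adjusted p = 0.0947) without replicate 2 of 12 h, and GH3.3 at -0.61 (adjusted p = 0.194) without replicate 1 of 12 h and -0.76 (adjusted p = 0.152) without replicate 2 of 3 h. The same 4 genes had 2 falls in untreated seedlings and 3 with 5929745, beside 16% and 11.5% of all probe sets lower.

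All 3 tested heat shock genes fell, beside 12.4% of all probe sets lower. The list has 5 genes on the array, and the rest were under the level for testing. AT5G48570, which the reference also names ROF2, a heat-induced immunophilin, had 99.4 and 152 at 12 h and 455 and 419 at 3 h (-1.70 ± 0.21, adjusted p = 8.82e-06). At 0 h it had 79.5 and 118, so the 3 h arrays were the high ones and the other groups overlapped. Hop3, a co-chaperone that links Hsp70 and Hsp90, had 126 and 138 against 248 and 317 (-1.002 ± 0.21, adjusted p = 0.00169), with 140.3 and 182 at 0 h. AT2G29500 had 142 and 163 against 234 and 371 (-0.89 ± 0.24, adjusted p = 0.00846), and lost its call without replicate 1 of 12 h (-0.80, adjusted p = 0.0638) or replicate 2 of 3 h (-0.57, adjusted p = 0.174). In untreated seedlings 1 of the 3 fell and with 5929745 0 did (1 at an unadjusted p under 0.05), beside 16% and 11.5% of all probe sets lower. The median change of the 3 was -1.002 with 7606596, -0.33 with 5929745 and -0.53 in untreated seedlings. The difference of courses passed the limma test in 0 of 3 against either. At an unadjusted p under 0.05 were 2 of 3 against untreated seedlings and 3 of 3 against 5929745, beside 1767 and 945 of all 15922 probe sets.

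Of 5 tested genes on the list for xenobiotics and oxidative stress, of 6 on the array, 1 rose and 1 fell. This count and those of the next lists here stand beside 26.5% of all probe sets called, 14% higher and 12.4% lower. AT2G21640 had 203 and 220.1 at 12 h and 72.5 and 62.8 at 3 h (1.45 ± 0.28, adjusted p = 0.000708). STZ, a zinc-finger repressor of abiotic stress responses, had 339.8 and 354 against 527 and 515 (-0.57 ± 0.16), and just missed the threshold without replicate 1 of 12 h (adjusted p = 0.0614) and without either replicate of 3 h (0.0622 and 0.0519). Of 9 late embryogenesis abundant genes, a family known from drying seeds, 2 fell, AT3G02480 with 466 and 311 against 976 and 1018 (-1.35 ± 0.28, adjusted p = 0.00143) and AT2G23110 with 228 and 163 against 400.0 and 410.4 (-1.01 ± 0.29). The call of AT2G23110 was lost without replicate 2 of 12 h (-0.79) or either replicate of 3 h (-1.03 and -0.99). Of 3 measured genes for abscisic acid, cold and drought 1 fell, the dehydrin LTI30 (-0.64), with -0.37 (adjusted p = 0.271) without replicate 2 of 12 h and the call also lost without either replicate of 3 h (-0.63 and -0.66).

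Members of the cytochrome P450 family, enzymes of specialised metabolism and detoxification, fell in 6 of 12 and rose in 0, beside 12.4% of all probe sets lower and 14% higher. All 6 belong to the CYP71B group, and CYP71B26 had 388 and 472 at 12 h and 1439 and 1159 at 3 h (-1.56 ± 0.15, adjusted p = 4.16e-07). CYP71B23 had 1422 and 1041 against 1997 and 2354 (-0.83 ± 0.15), and CYP71B24 and CYP71B29 changed by -0.81 ± 0.17 and -0.71 ± 0.14. At 0 h CYP71B26 had 454 and 535, so the 3 h arrays were again the high ones. CYP71B35 and CYP71B37 changed by -0.94 and -0.90. In untreated seedlings 5 of 12 fell and 1 rose, and with 5929745 4 fell. CYP71B genes are close relatives, and their probes may share targets.

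Further families were matched by symbol, and their counts stand beside 26.5% of all probe sets called, 14% higher and 12.4% lower. Of 31 UDP-glycosyltransferases, which attach sugars to hormones and small molecules, 5 rose and 3 fell, led by UGT71B1 with 639 and 604 at 12 h and 272 and 281 at 3 h (1.12 ± 0.14) and UGT87A2 with 1319.6 and 1206 against 689 and 731 (0.82 ± 0.13). The rises numbered 2 without replicate 1 of 3 h and 3 without replicate 2 of 12 h, and the falls 1 without replicate 2 of 12 h or of 3 h. Of 14 serine carboxypeptidase-like genes 4 rose and 2 fell, with the falls lost without replicate 1 of 12 h or of 3 h. Of 8 autophagy genes 1 rose, ATG8D, for a ubiquitin-like protein of autophagosomes (805 and 842 against 319 and 338, 1.29 ± 0.14), and 2 fell, ATG8F and ATG8E (-0.49 and -0.47), which without replicate 2 of 3 h had -0.33 and -0.36 and were not called, nor was ATG8E without replicate 2 of 12 h (-0.41).

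Of 8 SWEET sugar transporters 2 fell and 1 rose, beside the same 26.5%. SWEET17, a fructose transporter of the vacuole, had 659.5 and 508 at 12 h and 1225 and 1106 at 3 h (-0.99 ± 0.18), and SWEET2 had 2431 and 2251 against 4059.8 and 4224 (-0.82 ± 0.10). SWEET11 (0.47) was not called without replicate 1 of 12 h (0.39) or of 3 h (0.37). Of 8 glutathione transferases of the tau class 2 fell, GSTU18 with a change of -0.70 ± 0.12 and GSTU22 with -0.82 ± 0.24, the second not called without replicate 2 of 12 h (-0.40) or either replicate of 3 h (-0.82 and -0.81). Beta-glucosidases rose in 2 and fell in 4 of 10, and the falls numbered 1 without replicate 1 of 12 h or of 3 h and 2 without replicate 2 of either. Trichome birefringence-like genes, which acetylate wall polymers, rose in 1 and fell in 4 of 15, with 1 fall left without replicate 1 of 12 h and 2 without either replicate of 3 h. Ubiquitin-conjugating enzymes rose in 1 and fell in 1 of 11 and IQ-domain genes rose in 1 of 10, and each of these 3 calls was lost without replicate 2 of 12 h or of 3 h, the 2 rises also without replicate 1 of 3 h, and the IQ-domain rise without replicate 1 of 12 h too.

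Other lists had few measured members, and their counts stand beside 26.5% of all probe sets called. IVD and MCCA, mitochondrial enzymes of leucine breakdown and the 2 measured members of the list for dark and sugar starvation, changed by -0.39 and -0.32, and both calls were lost whichever 1 of the 4 arrays was left out (-0.44 to -0.33 and -0.37 to -0.27). Of 2 measured glucosinolate genes UGT74B1 rose (0.49) and BCAT4 fell (-1.004), with the call of UGT74B1 lost whichever array was left out (0.41 to 0.57) and that of BCAT4 lost without replicate 2 of 12 h (-0.71) or replicate 1 of 3 h (-0.65). Under quantile normalization neither was called (0.44 and -0.91), and with an offset of 64 BCAT4 changed by -0.64. PDF1.2, a defensin and the measured member for jasmonate, had -0.17, WRKY53, a transcription factor and the measured member for salicylate and defence, had -0.63, and BZIP60, a transcription factor of endoplasmic reticulum stress, had 0.05. Each of these 3 missed the threshold in limma, and WRKY53 alone had an unadjusted p under 0.05. The 1 matched member for phenylpropanoids was under the level for testing, and the lists for seed storage, touch and ethylene, nitrate and sulfate, iron and the cell cycle had no member matched to a probe set.

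The test of the difference between courses asks which genes moved otherwise with 7606596 than without it. It was passed by 21 probe sets against untreated seedlings (0.132%), 13 with a higher (0.0816%) and 8 with a lower change with 7606596 (0.0502%), and 15 of them have a gene name. At an unadjusted p under 0.05 there were 1767. The standard error of such a difference had a median of 0.233, and of 234 differences of at least 1 on the log2 scale 214 were not called, so a gene left uncalled is not shown to have followed the untreated course. The comparison also crosses the poly-A level and, at 12 h, the hybridization level given above, and their part in it was not tested. With no trend of the variance with signal 0 probe sets were called, and without replicate 2 of 3 h with 7606596 or without replicate 1 of untreated 12 h 7 were.

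Among named genes the pair of lipid-transfer loci had the most negative differences. AT2G48130 had 129.5 and 78.4 at 12 h and 757 and 772 at 3 h with 7606596, against 87.5 and 73.4 at 12 h and 91.1 and 130.3 at 3 h in untreated seedlings (difference -2.35 ± 0.34, adjusted p = 0.0044). AT3G22620 had 199 and 196 at 12 h and 2002 and 2646 at 3 h with 7606596, against 121 and 176 at 12 h and 317 and 380.1 at 3 h in untreated seedlings (difference -2.28 ± 0.28, adjusted p = 0.0014). For both loci the 3 h arrays with 7606596 stood above all others, and the 12 h groups lay near each other. AT1G19020 had 1162 and 969 at 12 h and 2037 and 1963 at 3 h with 7606596, and 410.3 and 442 at 12 h and 303 and 267 at 3 h without it (difference -1.46 ± 0.21, adjusted p = 0.0044). It fell with 7606596 and rose in untreated seedlings, and at 12 h its level with 7606596 was still above both untreated arrays.

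AT5G19240 also moved in opposite directions, with 381 and 358 at 12 h and 693 and 746 at 3 h with 7606596 and 502 and 592 at 12 h and 443 and 336 at 3 h in untreated seedlings (difference -1.41 ± 0.20, adjusted p = 0.0044). It fell with 5929745 too, at 313 and 325 at 12 h and 480 and 555 at 3 h. The compounds' courses were not called apart in it (adjusted p = 0.922, limma). AT1G29090 had the highest positive difference, at 181 and 211 at 12 h and 59.7 and 75.5 at 3 h with 7606596, and 385 and 376 at 12 h and 563 and 795 at 3 h in untreated seedlings (difference 2.14 ± 0.26, adjusted p = 0.0014). It rose with 5929745 too, at 1016 and 933 at 12 h and 749 and 496 at 3 h, and the compounds' courses were not called apart (adjusted p = 0.678, limma). With 7606596 it rose, starting at 3 h far under its 0 h level (488 and 473). At 12 h both arrays with 7606596 stayed under both untreated ones. These 5 differences kept their call whichever 1 of the 8 arrays was left out, while that of AT2G48130 was lost with no filter (adjusted p = 0.0559) and all 5 with no variance trend. A further 7 genes, AT5G48540, AT2G30270, AT4G16260, AT3G13760, AT4G34480, AT2G18750 and ASPGB1, had differences from -1.38 to 1.62 and each lost the call without at least 1 array, among them ASPGB1, an asparaginase that frees stored nitrogen, at 0.86 (adjusted p = 0.195) without replicate 2 of untreated 12 h. The other 3 of the 15 genes lie beyond the 6 largest in each direction that the naming rule takes, AT5G35735 at -1.13, AT5G25560 at 1.01 and AT5G40450 at 0.96.

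**Figure D4:**
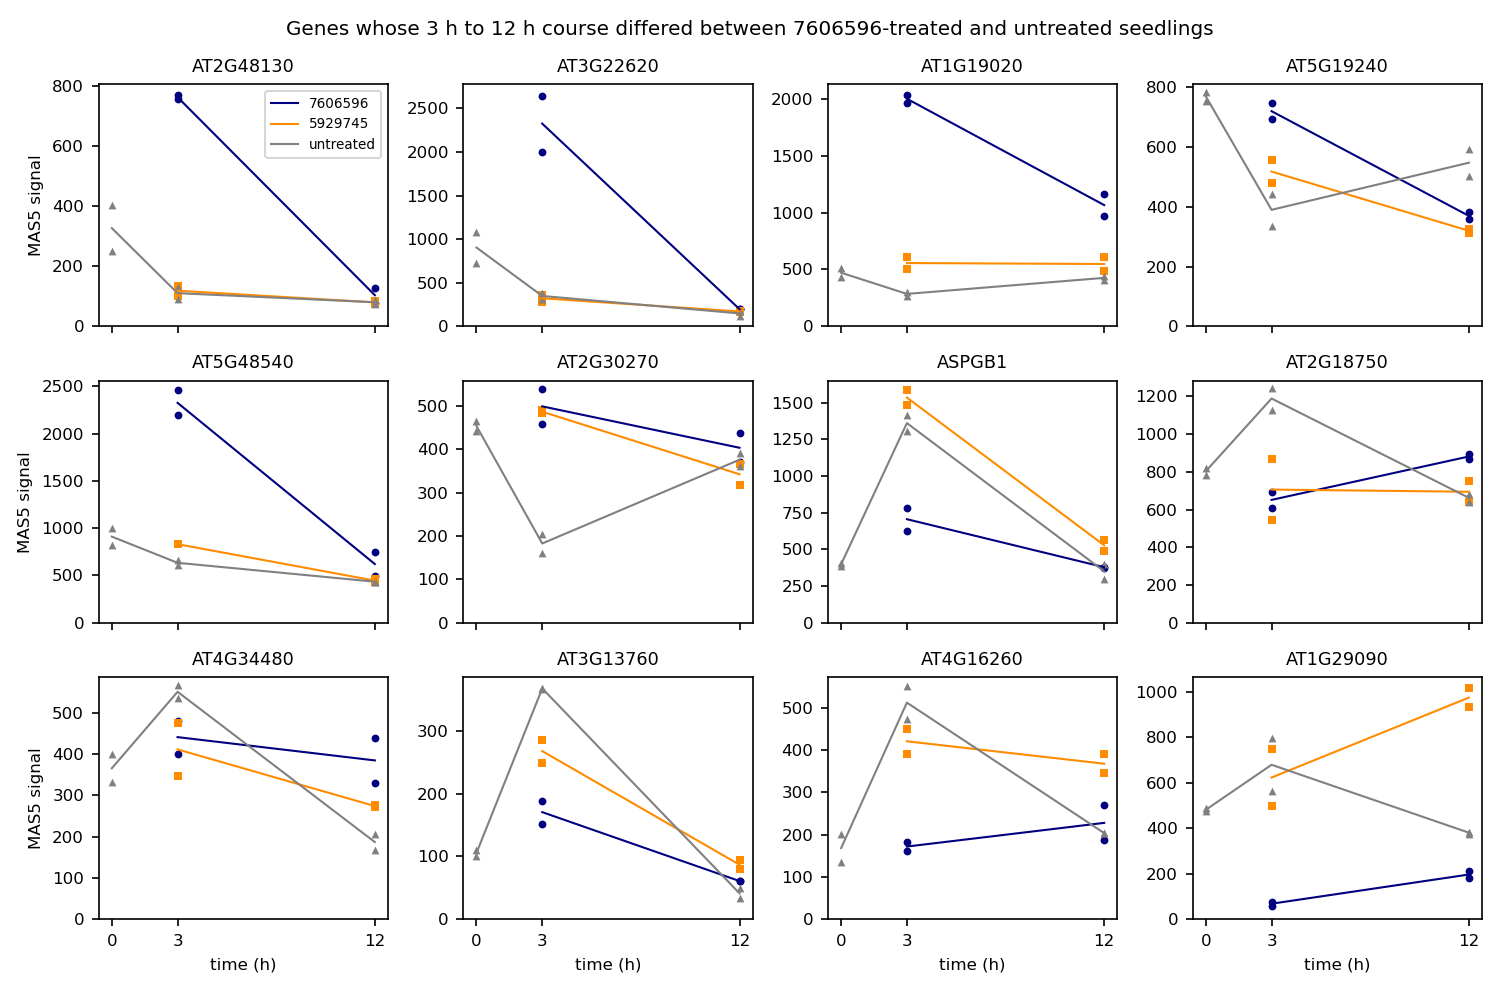
MAS5 signal of 12 of the 15 genes whose course from 3 h to 12 h differed between 7606596 and untreated seedlings, the 6 largest differences in each direction, with each array as a point and lines through group means. Blue circles stand for 7606596, orange squares for 5929745 and grey triangles for untreated seedlings, which also have 0 h. The lipid-transfer loci AT2G48130 and AT3G22620 are high on the 3 h arrays with 7606596 and near the other groups at 12 h.

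Against the course with 5929745, at the same dose and times, 8 probe sets differed (0.0502%), 2 with a higher (0.0126%) and 6 with a lower change with 7606596 (0.0377%), and 945 had an unadjusted p under 0.05. AT3G22620 had 199 and 196 at 12 h and 2002 and 2646 at 3 h with 7606596, against 176 and 166 at 12 h and 363 and 281 at 3 h with 5929745 (difference -2.59 ± 0.28, adjusted p = 0.000399). AT2G48130 had 129.5 and 78.4 at 12 h and 757 and 772 at 3 h with 7606596, against 75 and 85 at 12 h and 136 and 102 at 3 h with 5929745 (difference -2.25 ± 0.34, adjusted p = 0.0119), and lost the call without either replicate of 3 h with 7606596 or without replicate 2 of 12 h or of 3 h with 5929745 (-2.27, -2.24, -2.18 and -2.07 in that order). AT5G11420 fell with 7606596, at 1132 and 1396 at 12 h and 2772 and 2791 at 3 h, and had 2342 and 2606 at 12 h and 2956 and 2412 at 3 h with 5929745 (difference -1.02 ± 0.18, adjusted p = 0.041). AT5G26280 rose with 7606596, at 2951 and 2928 against 2275 and 2416, and fell with 5929745, at 2195 and 1927 against 3261 and 2856 (difference 0.89 ± 0.16, adjusted p = 0.0474). AT5G11420 lost its call without 6 of the 8 arrays, among them replicate 1 of 12 h with 7606596 (-0.88), and AT5G26280 without any 1 of the 8 (0.80 to 0.99). The number of calls ran from 3 to 19 when 1 array was left out, 19 without replicate 2 of 12 h with 7606596, and was 0 with no variance trend, and of 145 differences of at least 1 on the log2 scale 139 were not called.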

How the data were processed

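RNA of whole Arabidopsis seedlings was hybridised to single-colour Affymetrix ATH1 arrays, 14 in 7 groups of 2. The deposited table holds MAS5 intensity values on a linear scale for 22810 probe sets, per the submitters' processing notes, with further settings not given in the sources used here. The 64 control probe sets were left out, and probe sets with a mean intensity under the 30th percentile were not tested. Values were taken as log2(signal + 16). One mean per group was fitted over all 14 arrays in limma 3.58.1 (R 4.3.3) with a variance trend, which left 7 residual degrees of freedom beside 11.4 prior ones. Tests were two-sided with Benjamini-Hochberg adjustment over 15922 probe sets at 0.05, and the code was tested on simulated data. The number of arrays limits the precision, and 0 array pairs of a group held identical values.

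Of the 22746 probe sets 13513 have 1 gene in the platform annotation, 503 several and 8730 none, and 13436 of the first matched a locus of the reference table. Replicate numbers did not pair the arrays: same-numbered deviations correlated with r between -0.197 and 0.117 over 21 group pairs.

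Named are the 15 largest rises and 15 largest falls of called single-gene probe sets whose arrays do not overlap and whose higher mean reaches 168, the median signal. Up to 4 called members of each gene list were added, with the smallest adjusted p, and up to 6 called differences between courses in each direction. Members named beyond this rule were chosen after their values were seen: ATPC1, CYP71B35, CYP71B37, PDF1.2, WRKY53, BZIP60, AT5G35735, AT5G25560 and AT5G40450. The comparison, gene lists and tests were chosen with earlier results of these data known, and the families matched by symbol were added after the values were seen. A list of cytosolic ribosomal proteins could not be assembled from the reference table used here. Alternatives were the offset, the filter, the variance trend, quantile normalization, a replicate block, the arrays in the fit and leaving out each array.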

Additional observations from a re-analysis of the deposited data

Results flagged for a closer look

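Course differences between 7606596 and another treatment that passed limma's test of the difference itself (adjusted p under 0.05) are given here for the 6 largest in each direction, as the log2 change with 7606596 minus the other. Against untreated seedlings, where 3 further genes passed (AT5G35735 at -1.13, AT5G25560 at 1.01 and AT5G40450 at 0.96), the lower ones were AT2G48130 at -2.355, AT3G22620 at -2.278, AT1G19020 at -1.46, AT5G19240 at -1.413, AT5G48540 at -1.376 and AT2G30270 at -1.283. AT5G48540 had 746 and 495 at 12 h and 2195 and 2457 at 3 h with 7606596, against 435 and 433 at 12 h and 659.6 and 608 at 3 h in untreated seedlings, and lost its call without replicate 2 of 3 h with 7606596, either replicate of untreated 12 h or replicate 2 of untreated 3 h (adjusted p up to 0.0984). AT2G30270 had 369.8 and 437 at 12 h and 539 and 459 at 3 h, against 390.2 and 361 at 12 h and 204 and 162 at 3 h, and lost its call without replicate 1 of 12 h or of 3 h with 7606596, replicate 1 of untreated 12 h or replicate 2 of untreated 3 h (adjusted p up to 0.0873).

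The higher ones were AT1G29090 at 2.136, AT4G16260 at 1.622, AT3G13760 at 1.489, AT4G34480 at 1.292, AT2G18750 at 1.258 and ASPGB1 at 1.06. ASPGB1 had 382 and 375 at 12 h and 628 and 783 at 3 h with 7606596, against 399 and 301 at 12 h and 1416 and 1304 at 3 h in untreated seedlings. It was thus lower at 12 h under both conditions, with the untreated 3 h arrays highest. AT4G16260 had 186 and 269 at 12 h and 183 and 160.1 at 3 h with 7606596, against 203 and 204 at 12 h and 552 and 473 at 3 h in untreated seedlings, and AT2G18750 had 894 and 869 at 12 h and 696 and 607 at 3 h, against 683 and 642 at 12 h and 1247 and 1131 at 3 h. The calls of AT4G16260, AT3G13760, AT4G34480, AT2G18750 and ASPGB1 were lost without 5, 7, 7, 8 and 7 of the 8 arrays.

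Against the course with 5929745 the differences were -2.595 for AT3G22620, -2.253 for AT2G48130, -1.025 for AT5G11420 and 0.89 for AT5G26280.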

How the results depend on the processing

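Of 105 named genes of the 7606596 course, 71 kept their direction and call under every alternative run in which they were tested. None of the 16 named differences between courses did, since 0 were called with no variance trend, where the smallest adjusted p was 0.0833 against untreated seedlings and 0.0587 against 5929745, and 11 of the 16 lost their call with no filter. Calls of the 7606596 course (4215) lay between 3700 and 4302 under the other settings and between 2771 and 3215 with 1 array left out, lowest without replicate 2 of 3 h. Leaving out 1 array gave 3722 to 4298 calls for untreated seedlings and 2652 to 3316 for 5929745, lowest without its replicate 2 of 3 h. The differences from untreated seedlings (21) numbered 35 with an offset of 64, 7 with no filter, 0 with no variance trend, and 7 to 17 with 1 array left out. Those from 5929745 (8) numbered 4 with an offset of 1, 3 with no filter, 0 with no variance trend, 5 on the arrays compared alone, and 3 to 19 with 1 array left out. With a replicate block there were 4196, 5412 and 3994 calls for 7606596, untreated seedlings and 5929745, 20 differences from untreated seedlings and 4 from 5929745. The numbers of the 12 h and 3 h arrays with 7606596 correlated with r = -0.131, and with crossed numbers, an alternative chosen after seeing the data, the replicate block gave 4302 calls. Among the named values only atpE turned its sign, to 0.0862 under quantile normalization (adjusted p = 0.551). The causes were not tested. The standard error of a difference between courses had a 90th percentile of 0.41 over the tested probe sets, and the smallest called differences were 0.96 and 0.89.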

Other observations

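Called members of the trichome birefringence-like and beta-glucosidase families moved in both directions. TBL37 rose with 7606596, at 2223 and 2136 at 12 h and 1395 and 1560.4 at 3 h (0.56 ± 0.11), while TBL35 fell, at 155 and 150.2 against 289 and 255 (-0.77 ± 0.15). BGLU42 and BGLU44 rose by 0.76 ± 0.17 and 0.64 ± 0.12 on the log2 scale, with BGLU42 at 276 and 312 against 157 and 176. BGLU40 fell, at 89.8 and 109.9 at 12 h and 224 and 210.3 at 3 h (-1.01 ± 0.21). These 5 calls held in limma under every alternative in which they were tested. The families were chosen after the values were seen.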
